A study of Gallus gallus with 20 samples.

Results

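The genes described here build the purine ring, turn purines into uric acid, and capture or channel ammonia. The set was fixed by symbol: 9 names were asked for, and the deposited gene table carries 7 of them (PPAT, GART, PAICS, ADSL, XDH, GLUL and CPS1) among its 27170 rows. The enzymes of the other names were found on 2 further rows, which the symbol rule does not reach and which are given separately throughout. ATIC is listed under PURH, a RefSeq synonym of it, and the GLUD1 enzyme is a row without a symbol (ENSGALG00000034735) that the table describes as glutamate dehydrogenase 1, called the glutamate dehydrogenase row below.

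Bulk tissue RNA was sequenced in 20 libraries from slow-growing, mixed-sex KRC chickens slaughtered at 91 days. Organic birds ate feed made of organic ingredients and could go out to pasture from day 21, whereas conventional birds ate commercial feed and stayed indoors. Both systems had 125 chicks in 5 pens and shared one climate-controlled house. The groups were organic liver, conventional liver, organic breast muscle (pectoralis major) and conventional breast muscle, with 5 libraries each. Feed and pasture changed together, so their contributions cannot be told apart. The labels do not say which pen or sex a bird came from, nor whether a liver and a muscle came from the same bird, so the p-values measure the spread between these samples.

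Birds excrete most surplus nitrogen as uric acid instead of urea. In the avian liver, glutamine synthetase traps ammonia as glutamine, and glutamine, glycine, aspartate and folate-borne carbons are assembled on phosphoribosyl pyrophosphate into inosine monophosphate. Inosine monophosphate is then degraded to hypoxanthine and xanthine, which xanthine dehydrogenase oxidises to uric acid; birds lack a working urate oxidase, so urate is the end product.

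Total counts per library were 14065269 to 20488526 in liver and 12699692 to 13417005 in breast muscle. Mitochondrial genes took 5.79% to 14.2% of liver counts, with the highest share in organic liver replicate 4 and at most 9.25% in the other livers, and 3.27% to 5.60% of muscle counts. The tissue labels matched their defining markers: ALB averaged 44050 FPKM in organic liver and 40780 FPKM in conventional liver, against 0.232 FPKM in organic muscle and 0.365 FPKM in conventional muscle, and the summed muscle fibre markers (4 of 9 names had rows) were 0.494 to 3.02 FPKM in liver and 53940 to 77360 FPKM in muscle. FPKM, fragments scaled by gene length and a size factor of each library, is printed as deposited. Organic liver replicate 4 had the lowest summed hepatocyte markers of the livers, 57260 FPKM against 70480 to 106700 FPKM in the other livers. The 7 member genes together took 0.211% to 0.575% of liver counts and 0.0638% to 0.161% of muscle counts.

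The first question was how strongly each of these genes is expressed in liver, a site of avian uric acid synthesis, relative to breast muscle. Of the 7 members, 6 were higher in liver and 0 were lower, past an adjusted p of 0.05 in edgeR's quasi-likelihood test with Benjamini-Hochberg adjustment over 14447 genes. The background is large: of all genes tested, 42.5% were called higher in liver and 39.1% lower, and 81.5% were called in either direction. The members' median log2 fold change was 3.28, against 0.07 for all genes tested. In bulk tissue, fewer expressing cells and less RNA per cell cannot be told apart.

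PPAT (ENSGALG00000013728, chromosome 4, 64741468 to 64783894, plus strand, GRCg6a build) encodes amidophosphoribosyltransferase, the committing step of de novo purine synthesis. It averaged 132.7 ± 52.8 FPKM in organic liver, 77.9 ± 34.2 FPKM in conventional liver, 3.22 ± 0.763 FPKM in organic muscle and 2.52 ± 0.289 FPKM in conventional muscle (SD, n = 5 each). Liver over muscle reached a log2 fold change of 5.17 ± 0.25 (SE), with an adjusted p of 3.37e-14 in edgeR's quasi-likelihood test. Every liver library lay above every muscle library, as was so for 24.7% of the 14447 genes tested.

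GART (ENSGALG00000037076, chromosome 1, 106695142 to 106733810, minus strand) encodes the trifunctional enzyme of the next steps, which adds glycine and a formyl carbon and closes the first ring. It averaged 97.8 ± 35.8 FPKM in organic liver, 100.6 ± 24.3 FPKM in conventional liver, 9.65 ± 2.74 FPKM in organic muscle and 11.1 ± 2.33 FPKM in conventional muscle (SD, n = 5 each). Its log2 fold change of liver over muscle was 3.28 ± 0.19 (SE; adjusted p = 7.09e-13, edgeR).

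PAICS (ENSGALG00000013726, chromosome 4, 64733840 to 64768851, minus strand) encodes the bifunctional enzyme that carboxylates the ring and attaches aspartate. Its levels were 132.0 ± 49.8 FPKM in organic liver, 76.9 ± 36.4 FPKM in conventional liver, 6.05 ± 1.09 FPKM in organic muscle and 5.37 ± 0.893 FPKM in conventional muscle (SD, n = 5 each). Liver exceeded muscle by a log2 fold change of 4.16 ± 0.24 (SE; adjusted p = 5.53e-13, edgeR). PAICS and PPAT lie on opposite strands and their annotated spans overlap over 27384 bases (64741468 to 64768851). Whether the counting used strand is not stated in the sources at hand, so reads in that overlap cannot be assigned with certainty to either gene.

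ADSL (ENSGALG00000012034, chromosome 1, 50091088 to 50106774, minus strand) encodes adenylosuccinate lyase, which releases fumarate in the purine ring pathway and again in the making of AMP. Unlike those genes, it was not called between tissues. Its mean levels were 390.2 ± 186.7 FPKM in organic liver, 397.3 ± 107.1 FPKM in conventional liver, 398.0 ± 53.2 FPKM in organic muscle and 331.8 ± 23.8 FPKM in conventional muscle (SD, n = 5 each). The log2 difference of liver over muscle was 0.13 ± 0.18 (SE; adjusted p = 0.513, edgeR), with a 95% interval of -0.25 to 0.51. That interval excludes the log2 fold changes measured for PPAT, GART and PAICS.

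The PURH row (ENSGALG00000003570, chromosome 7, 4368941 to 4386891, plus strand) stands for ATIC, the enzyme that closes the ring to inosine monophosphate. It had the highest mean FPKM of the set in liver. It averaged 1303 ± 628 FPKM in organic liver and 1181 ± 273 FPKM in conventional liver, against 11.4 ± 2.29 FPKM in organic muscle and 12.3 ± 2.40 FPKM in conventional muscle (SD, n = 5 each). Its log2 fold change of liver over muscle was 6.73 ± 0.24 (SE; adjusted p = 1.44e-16, edgeR).

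XDH (ENSGALG00000008701, chromosome 3, 4475544 to 4516350, plus strand), xanthine dehydrogenase, makes uric acid itself and had the largest tissue difference of the members. It averaged 156.5 ± 65.4 FPKM in organic liver and 158.0 ± 82.4 FPKM in conventional liver, against 0.207 ± 0.134 FPKM in organic muscle and 0.144 ± 0.0866 FPKM in conventional muscle (SD, n = 5 each). Liver over muscle amounted to a log2 fold change of 9.82 ± 0.41 (SE; adjusted p = 2.96e-15, edgeR). The muscle values rest on 2 to 22 counts per organic library and 1 to 14 per conventional library. Over the 10 libraries of each tissue, XDH in muscle stood at 0.112% of its liver level. The 9 hepatocyte markers summed stood at 0.785% in muscle, nearly all of it APOA1, which averaged 9017 FPKM in organic liver and 6195 FPKM in conventional liver, against 561.7 FPKM in organic muscle and 728.7 FPKM in conventional muscle. The 8 markers without APOA1, left out after its muscle level was seen, stood at 0.00151%. The part of liver RNA in the muscle XDH values was not tested.

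GLUL (ENSGALG00000043754, chromosome 8, 6012850 to 6022834, plus strand) encodes glutamine synthetase, which fixes ammonia onto glutamate. It was abundant in both tissues: 372.2 ± 179.6 FPKM in organic liver, 244.4 ± 121.8 FPKM in conventional liver, 229.6 ± 67.3 FPKM in organic muscle and 114.8 ± 92.1 FPKM in conventional muscle (SD, n = 5 each). Liver was higher over all 20 libraries, with a log2 fold change of 0.91 ± 0.35 (SE; adjusted p = 0.0209, edgeR). The call was lost within either system alone, where fewer libraries entered each fit. The values were 0.71 (adjusted p = 0.0626, edgeR) among organic libraries and 1.11 (adjusted p = 0.0856, edgeR) among conventional libraries.

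The glutamate dehydrogenase row (chromosome 6, 3364213 to 3395369, minus strand) stands for the mitochondrial enzyme that links ammonia to glutamate and oxoglutarate. It averaged 284.5 ± 103.7 FPKM in organic liver, 258.5 ± 37.0 FPKM in conventional liver, 29.4 ± 2.51 FPKM in organic muscle and 22.8 ± 2.72 FPKM in conventional muscle (SD, n = 5 each). Liver over muscle gave a log2 fold change of 3.40 ± 0.16 (SE; adjusted p = 1.57e-14, edgeR).

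CPS1 (ENSGALG00000002944, chromosome 7, 2842238 to 2943240, plus strand) encodes carbamoyl phosphate synthetase, which feeds ammonia into the urea cycle of ureotelic animals. It was near the bottom of the scale everywhere, at 0.569 ± 0.302 FPKM in organic liver, 1.22 ± 0.492 FPKM in conventional liver, 0.292 ± 0.179 FPKM in organic muscle and 0.481 ± 0.420 FPKM in conventional muscle (SD, n = 5 each). Liver was nevertheless higher, by a log2 fold change of 1.17 ± 0.38 (SE; adjusted p = 0.00798, edgeR). Among conventional libraries alone the value was 1.36 (adjusted p = 0.0347, edgeR), and among organic libraries alone it was 0.98 (adjusted p = 0.0772, edgeR), which missed the threshold.

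**Figure D1:**
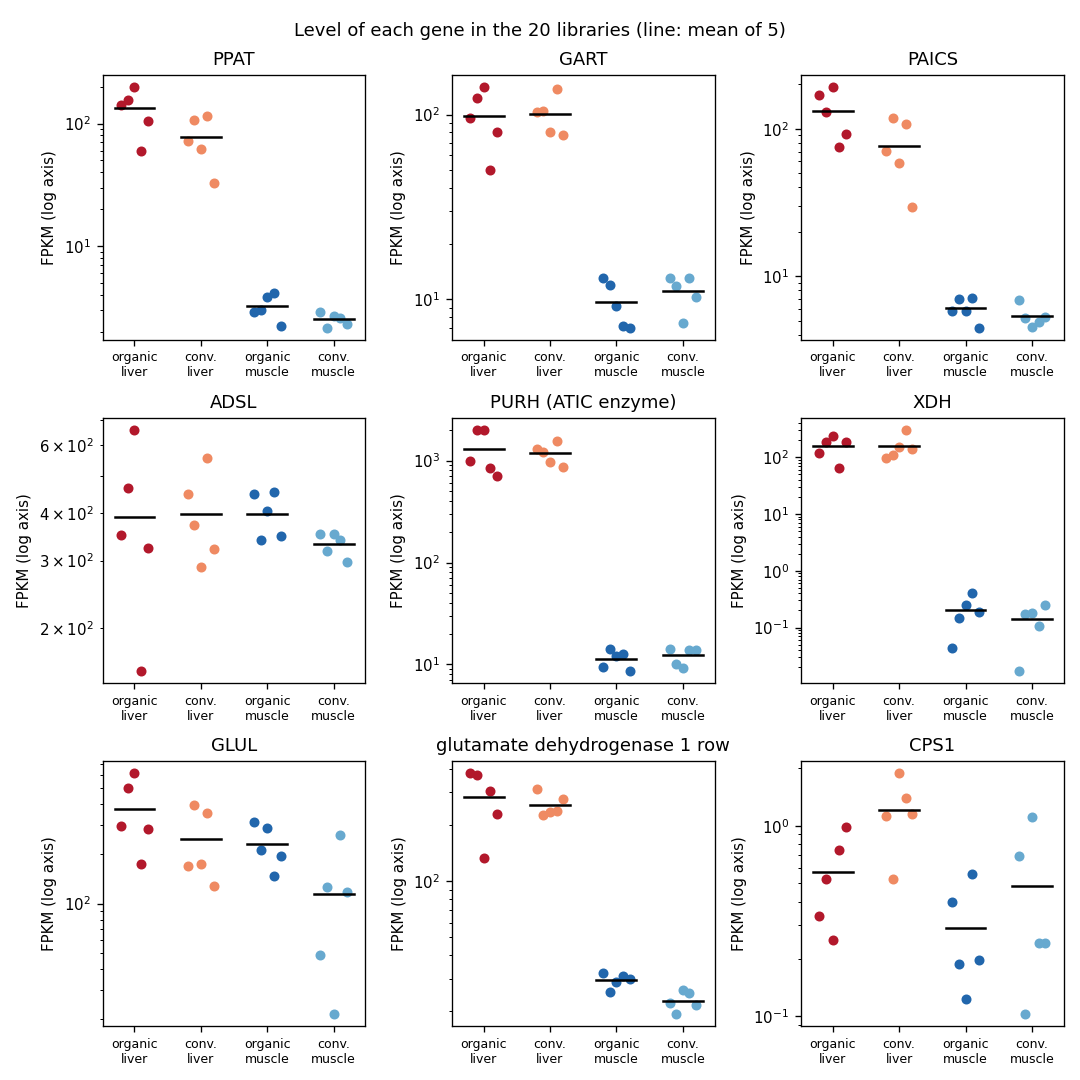
Deposited FPKM on a log axis of the 7 member genes and the 2 further rows in each of the 20 libraries, with liver groups left of muscle groups and organic left of conventional, and horizontal bars for group means. XDH, PURH, PPAT, PAICS, GART and the glutamate dehydrogenase row separate the tissues, ADSL stands at about the same height in all 4 groups, and CPS1 stays below 2 FPKM throughout. Of the 14447 genes tested, 24.7% separated the tissues with liver higher and 24.3% with liver lower.

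On the per-length FPKM scale, the order of mean levels in organic liver was PURH, ADSL, GLUL, the glutamate dehydrogenase row, XDH, PPAT, PAICS, GART and CPS1. The ranges of neighbours in that order overlapped except at its ends: PURH did not overlap ADSL, and GART did not overlap CPS1. Conventional liver had the same enzymes at the ends, with PURH clear of ADSL and PAICS clear of CPS1. In both muscle groups ADSL came first and GLUL next, and CPS1 and XDH came last with overlapping ranges.

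The second question was whether the raising system changed these genes in liver. Of the 7 members, 0 passed an adjusted p of 0.05 in edgeR's quasi-likelihood test or in DESeq2, and 1, CPS1, had an unadjusted p under 0.05. Of the 13186 liver genes tested, 0.0% were called by edgeR, 0.243% by DESeq2 and 7.56% had an unadjusted p under 0.05. The members' median log2 fold change of organic over conventional liver was -0.03, beside -0.01 for all genes tested.

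PPAT and PAICS had the highest log2 estimates among the members, in the upward direction. PPAT was measured at 143, 156, 199, 59.7 and 106 FPKM in organic livers 1 to 5, against 71.5, 108, 61.4, 116 and 32.9 FPKM in conventional livers 1 to 5. PAICS was measured at 170, 131, 192, 75.2 and 91.6 FPKM in organic livers, against 70.7, 118, 58.3, 108 and 29.5 FPKM in conventional livers. For both genes, organic replicates 1, 2 and 3 exceeded every conventional liver, while organic replicates 4 and 5 fell inside the conventional range. On the log2 scale, organic over conventional was 0.75 ± 0.35 (SE; adjusted p = 0.653, edgeR) for PPAT, with a 95% interval of -0.02 to 1.52. For PAICS it was 0.76 ± 0.36 (SE; adjusted p = 0.653, edgeR), with an interval of -0.02 to 1.54. Without conventional replicate 5, the lowest library for both, each estimate was 0.56. The highest estimates with a library left out were 0.93 for PPAT, without organic replicate 4, and 0.98 for PAICS, without conventional replicate 2.

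The other ring enzymes with rows had estimates near 0. GART read 95.2, 123, 141, 49.8 and 80.3 FPKM in organic livers, against 104, 104, 80.4, 138 and 77.1 FPKM in conventional livers, and its log2 fold change was -0.06 ± 0.25 (SE; adjusted p = 0.960, edgeR). ADSL read 349, 465, 658, 154 and 324 FPKM in organic livers, against 448, 371, 289, 556 and 322 FPKM in conventional livers, with a log2 fold change of -0.05 ± 0.31 (SE; adjusted p = 0.976, edgeR). For both genes the organic livers held the highest and the lowest value of the 10. PURH, at 710.3 to 1992 FPKM in organic livers and 868.5 to 1555 FPKM in conventional livers, gave 0.12 ± 0.30 (SE; adjusted p = 0.936, edgeR).

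XDH was measured at 120, 182, 232, 63.9 and 184 FPKM in organic livers, against 94.7, 107, 149, 300 and 140 FPKM in conventional livers. The groups overlapped, and conventional replicate 4 stood above all other livers. The log2 fold change was -0.03 ± 0.37 (SE; adjusted p = 0.985, edgeR), with a 95% interval of -0.83 to 0.77, and it was 0.33 without that library and -0.21 without organic replicate 3.

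GLUL was measured at 293, 500, 614, 172 and 282 FPKM in organic livers, against 170, 396, 173, 355 and 128 FPKM in conventional livers. Organic replicates 2 and 3 exceeded every conventional liver, and the others lay within the conventional range. The log2 fold change was 0.58 ± 0.38 (SE, adjusted p = 0.715, edgeR), with a 95% interval of -0.25 to 1.42. It ranged from 0.34 without organic replicate 3 to 0.83 without conventional replicate 2. The glutamate dehydrogenase row was at 133.9 to 380.7 FPKM in organic livers and 226.3 to 314.7 FPKM in conventional livers, with a log2 fold change of 0.12 ± 0.25 (SE; adjusted p = 0.918, edgeR).

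CPS1 had the lowest estimate of the members. It read 0.335, 0.526, 0.251, 0.746 and 0.988 FPKM in organic livers, against 1.12, 0.526, 1.88, 1.40 and 1.15 FPKM in conventional livers. All 5 organic livers were below the conventional mean, yet the groups overlapped because conventional replicate 2 was also low. The log2 fold change was -1.09 ± 0.41 (SE; unadjusted p = 0.0201, adjusted p = 0.628, edgeR), and DESeq2 gave an adjusted p of 0.351. The values rest on 18 to 85 counts per organic library and 45 to 156 counts per conventional library. Summed fibroblast markers were 62.2 to 112.9 FPKM in organic livers and 97.4 to 151.2 FPKM in conventional livers. Within the groups the order differed from that of CPS1. Conventional replicate 2 had the highest sum and the lowest CPS1 of its group, and conventional replicate 3 the lowest sum and the highest CPS1. Organic replicates 4 and 5 had the lowest organic sums (62.2 and 89.8 FPKM) and the highest organic CPS1. Summed endothelial markers were 162.3 to 272.4 FPKM in organic livers and 155.3 to 239.4 FPKM in conventional livers. The part of either cell type in the CPS1 values was not tested.

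**Figure D2:**
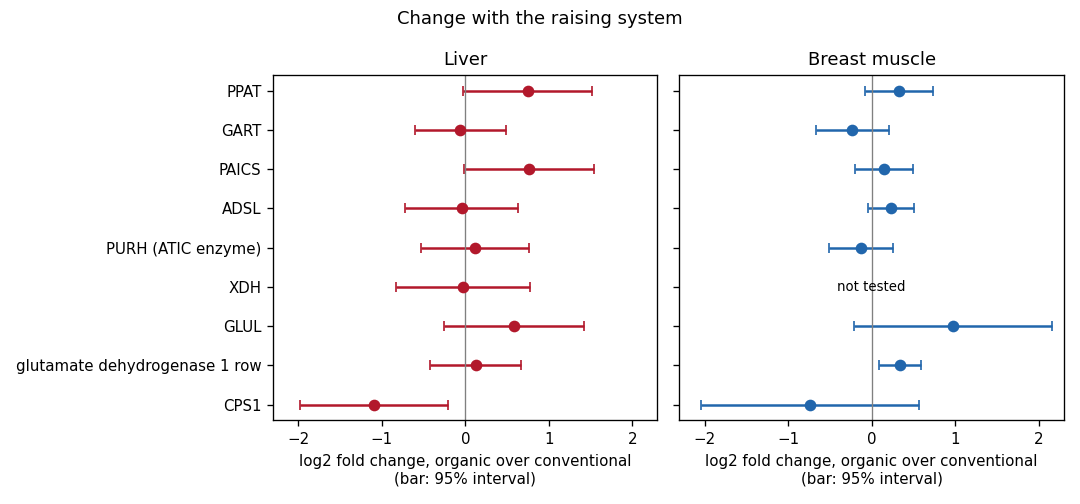
Log2 fold change of organic over conventional with its 95% interval from edgeR's quasi-likelihood fit, for each member and further row, in liver and in breast muscle. The liver intervals of PPAT and PAICS reach just below 0. Before adjustment, the liver interval of CPS1 lies below 0 and the muscle interval of the glutamate dehydrogenase row above it. No adjusted p passed 0.05 in either tissue, and XDH was not tested in muscle.

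The members also varied widely among livers of the same group, and several were high or low in the same libraries. Organic replicate 3 was the highest of the 10 livers for 5 of the 7 members (PPAT, GART, PAICS, ADSL and GLUL) and the lowest for CPS1. Outside the set, that library was also the highest for PRPS2, SHMT1, MTHFD1 and GPT2, though not for ADK. It was the lowest of the 10 for the glutamate dehydrogenase row (133.9 FPKM) and for FTCD (87.7 FPKM). MTHFD2, ALDH1L2, AOX1 and SLC25A13 were also lowest there. Organic replicate 4 was the lowest for GART, ADSL and XDH, and conventional replicate 5 was the lowest for PPAT, PAICS and GLUL. The share of all genes with their extremes in these libraries was not counted. The highest liver exceeded the lowest 6.05-fold for PPAT, 6.52-fold for PAICS, 4.80-fold for GLUL, 4.70-fold for XDH, 4.27-fold for ADSL and 2.84-fold for GART. For CPS1, which had few counts, it did so 7.5-fold. Organic replicate 4 was the liver with the lowest hepatocyte marker sum and the highest mitochondrial share, and it also had 1026 FPKM of erythrocyte markers, a level passed by organic replicate 5 at 1208 FPKM; the part of these in its member values was not tested.

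**Figure D3:**
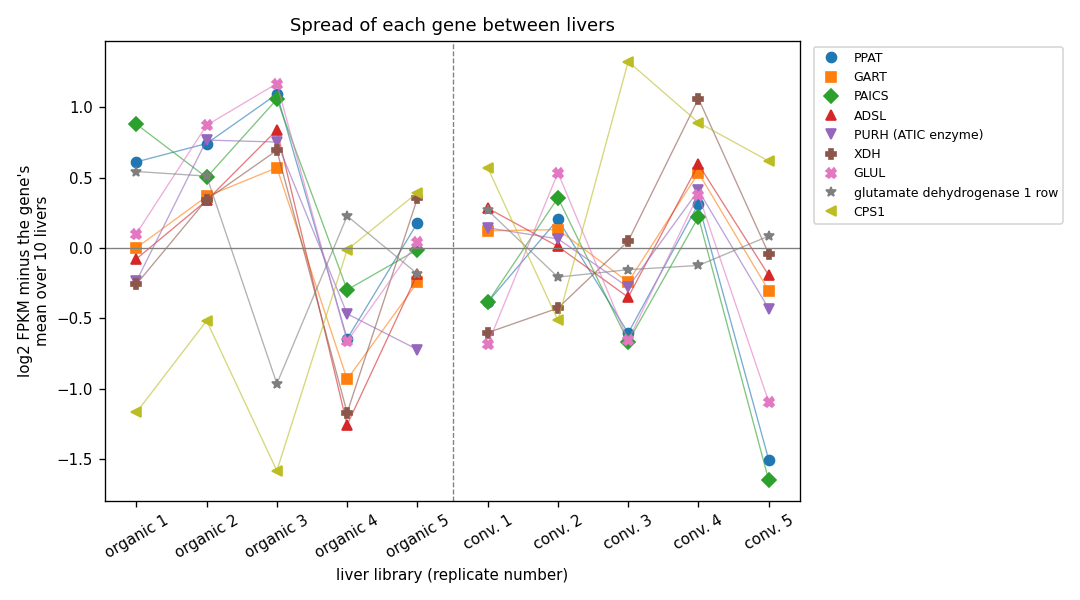
Log2 FPKM of each member and further row in each of the 10 livers minus that gene's mean log2 FPKM over the 10, with organic livers before conventional ones. Organic replicate 3 is high for PPAT, GART, PAICS, ADSL and GLUL and low for CPS1 and the glutamate dehydrogenase row. Organic replicate 4 and conventional replicate 5 are low for most of the purine genes.

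PPAT and PAICS, the neighbours on chromosome 4, tracked each other across libraries. Over the 10 livers, Pearson's r of their log2 CPM (counts scaled to library size) was 0.968 (permutation p = 2e-05, the smallest that 100000 resamples give; adjusted 4e-05 over 2 relations) and Spearman's rho was 0.915 (permutation p = 0.00034; adjusted 0.00068). Without conventional replicate 5 and organic replicate 3, the livers farthest from the median of PPAT, r was 0.911, and after each group's mean was removed it was 0.954. In muscle r was 0.669 (permutation p = 0.0385, adjusted 0.0385) and rho was 0.794 (permutation p = 0.00812, adjusted 0.00812), with r of 0.681 without organic replicates 4 and 3. The FPKM of PPAT divided by that of PAICS was 0.794 to 1.19 in livers and 0.415 to 0.653 in muscles, so the tissues did not overlap in that ratio. The overlap of their annotated spans touches both measures, and its part was not tested.

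**Figure D4:**
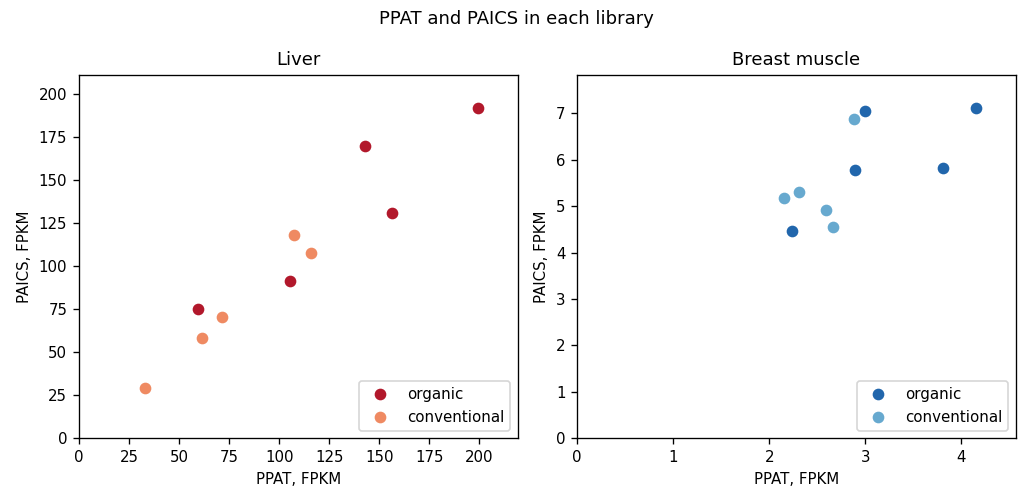
PAICS (vertical axis) against PPAT (horizontal axis) in deposited FPKM on linear axes from 0, a point per library, in liver and in breast muscle, with organic libraries in the darker colour. The liver points lie along a line with organic replicate 3 at 199 and 192 FPKM at the top and conventional replicate 5 at 32.9 and 29.5 FPKM at the bottom (PPAT and PAICS), while the muscle points are more scattered over a narrower range.

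After group means were removed, the closest pair among the members in liver was GART and ADSL (r = 0.975, a description over 10 libraries, each library's depth and cell makeup being common to both genes). PPAT and GLUL gave 0.923 and PPAT and GART gave 0.887, whereas XDH and PAICS gave 0.334. CPS1, which had few counts, ran the other way to PPAT (-0.536) and PAICS (-0.624). In liver 13186 genes were tested, and each member was ranked among all liver genes from the highest r down. For PPAT, GLUL ranked 13, GART 41 and CPS1 11694. For GART, ADSL ranked 4, for XDH, PAICS ranked 2536, and for PAICS, CPS1 ranked 12381. Genes outside the set thus stood closer to PPAT than GART did, and others were more negative than CPS1. Among 9844 genes with a symbol outside the set, the one most like each member over the same 10 libraries was CTSA for PPAT (r = 0.983), NCOA4 for GART (0.988), SLC16A10 for PAICS (0.937), RMDN3 for ADSL (0.970), FSTL3 for XDH (0.961), MTURN for GLUL (0.955) and ACVRL1 for CPS1 (0.964). For PURH it was CIAPIN1 (0.983) and for the glutamate dehydrogenase row CRIP2 (0.975). Each of these r values was the highest picked from 9844 genes over only 10 libraries. How high such a pick stands among unrelated genes was not tested.

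The same question was put to breast muscle, where 6 of the 7 members had enough counts to be tested and XDH did not. By edgeR's quasi-likelihood test 0 of these passed an adjusted p of 0.05, 0 passed in DESeq2, and 0 had an unadjusted p under 0.05. Of 12496 muscle genes tested, 0.0% were called by edgeR, 0.12% by DESeq2 and 7.47% had an unadjusted p under 0.05. The tested members' median log2 fold change was 0.19, beside -0.01 for all genes.

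GLUL had the highest estimate in muscle. It read 311, 211, 285, 146 and 195 FPKM in organic muscles, against 48.8, 126, 21.5, 259 and 118 FPKM in conventional muscles. All 5 organic muscles exceeded the conventional mean, but conventional replicate 4 lay among the organic values. GLUL in organic over conventional muscle gave a log2 fold change of 0.97 ± 0.54 (SE; adjusted p = 0.696, edgeR), with a 95% interval of -0.21 to 2.16, and it ranged from 0.71 without conventional replicate 3 to 1.51 without conventional replicate 4.

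The other muscle estimates were smaller. PPAT was measured at 2.89, 2.996, 3.81, 4.15 and 2.24 FPKM in organic muscles, against 2.88, 2.15, 2.66, 2.59 and 2.31 FPKM in conventional muscles, a log2 fold change of 0.33 ± 0.19 (SE; adjusted p = 0.696, edgeR). ADSL was measured at 447, 340, 403, 453 and 348 FPKM in organic muscles, against 352, 317, 353, 340 and 298 FPKM in conventional muscles, a log2 fold change of 0.23 ± 0.13 with a 95% interval of -0.04 to 0.51. The groups overlapped for both genes. PAICS gave 0.15 ± 0.16 and GART gave -0.23 ± 0.20 on the same scale. CPS1 gave -0.74 ± 0.60 and, without conventional replicate 3, its highest muscle library at 1.12 FPKM, -0.18; without organic replicate 4 it was -1.11. Organic replicate 4 was the highest of the 10 muscles for 4 of the 7 members (PPAT, PAICS, ADSL and XDH), and the share over all genes was not counted. Without organic replicate 4, the log2 fold changes were 0.22 for PPAT, 0.08 for PAICS and 0.19 for ADSL. The same library had 733.2 FPKM of summed erythrocyte markers, against 74.5 to 228.8 FPKM in the other organic muscles and 74.2 to 112.2 FPKM in conventional muscles. The haemoglobin genes HBA1, HBBA and HBAD averaged 124.9, 83.7 and 29.6 FPKM in organic muscle, against 45.8, 29.9 and 7.12 FPKM in conventional muscle. Of the other listed markers, ALAS2 averaged 13.1 and 12.8 FPKM and SLC4A1 1.82 and 1.66 FPKM in these groups. The part of red cells in the member values of that library was not tested.

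The glutamate dehydrogenase row had the smallest unadjusted p of the set in muscle. It was at 32.2, 25.6, 28.8, 30.9 and 29.8 FPKM in organic muscles, against 22.1, 19.3, 26.1, 25.0 and 21.7 FPKM in conventional muscles. Of the organic muscles, 4 lay above every conventional one, and organic replicate 2 lay just under conventional replicate 3. Its log2 fold change was 0.34 ± 0.12 (SE; unadjusted p = 0.0111, adjusted p = 0.567, edgeR). PURH gave -0.13 ± 0.18, with overlapping groups.

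Whether the system effect differed between the tissues was tested as an interaction over all 20 libraries. By edgeR 0 of the 7 members passed an adjusted p of 0.05, 0 did in DESeq2, and 0 had an unadjusted p under 0.05. Of 14447 genes, 0.0% were called by edgeR and 5.34% had an unadjusted p under 0.05. XDH entered this fit through its liver counts, with 2 to 22 counts per organic muscle library and 1 to 14 per conventional one. Its value of -0.55 ± 0.71 (log2 ± SE) therefore cannot decide whether its system effect differed between the tissues. The effect in liver minus that in muscle was 0.63 ± 0.42 for PAICS, 0.43 ± 0.43 for PPAT, -0.38 ± 0.69 for GLUL and -0.36 ± 0.77 for CPS1 (log2 ± SE), so the errors were as large as most of the differences.

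The neighbouring reactions were followed in 9 lists of other pathway genes, where 53 of 71 names had rows. No row was found for PFAS, an enzyme of the purine ring pathway, nor for PRPS1 or SHMT2. The pathway was thus not read at every step. By raising system, 0 of 47 tested rows in liver and 0 of 46 in muscle passed in edgeR. In each tissue 4 rows had an unadjusted p under 0.05, where 7.56% of all liver genes and 7.47% of all muscle genes did. Their median log2 fold changes were 0.04 in liver and -0.001 in muscle, beside -0.01 for all genes in either tissue. Between tissues, 23 of 49 tested rows were called higher in liver and 23 lower, where 42.5% of all genes were called higher and 39.1% lower. The median was -0.09 beside 0.07 for all genes.

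The reactions that feed the ring were read from rows for phosphoribosyl pyrophosphate supply and for glycine and folate carbon supply. PRPS2, which makes phosphoribosyl pyrophosphate, averaged 414.5 ± 127.2 FPKM in organic liver and 435.6 ± 79.9 FPKM in conventional liver, against 5.02 ± 2.47 FPKM in organic muscle and 7.20 ± 2.89 FPKM in conventional muscle (SD, n = 5 each), a log2 fold change of 6.16 ± 0.29 (SE; adjusted p = 1.76e-14, edgeR). Of the other rows of that supply, PRPSAP1, an associated protein of the synthetase, was called lower in liver (log2 fold change -1.01; adjusted p = 2.64e-09, edgeR) and PRPSAP2 was not called (0.10). Of the 10 rows for glycine and folate carbon supply, 7 were called higher in liver and 3 lower, where 42.5% of all genes were called higher and 39.1% lower; whether the list differs from other genes was not tested. SHMT1, which takes a carbon from serine to make glycine, had a log2 fold change of 5.32 and MTHFD1, which provides formyl folate, one of 4.92. The 3 lower rows were the mitochondrial folate enzymes MTHFD2 at -3.34, ALDH1L2 at -5.42 and MTHFD2L at -0.93. MTHFD1L, also mitochondrial, was called higher at 0.53 (adjusted p = 0.0136, edgeR), a call lost among conventional libraries alone (0.50, adjusted p = 0.0996, edgeR). FTCD, which recovers a folate carbon from histidine, averaged 124.8 FPKM in organic liver and 128.5 FPKM in conventional liver and was listed at 0 in every organic muscle.

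Of the 11 tested rows of purine breakdown, 3 were called higher in liver and 8 lower, and of the 5 rows that turn inosine monophosphate into AMP and GMP, 1 was called higher and 4 lower. Over all genes these shares were 42.5% higher and 39.1% lower, and no test set the lists against other genes. AMPD1, the muscle AMP deaminase, was at 0.0551 FPKM in organic liver and 0.0566 FPKM in conventional liver, against 380.9 ± 90.6 FPKM in organic muscle and 288.1 ± 49.0 FPKM in conventional muscle (SD, n = 5 each). AMPD2, another AMP deaminase, was called higher in liver. It averaged 5.84 FPKM in organic liver and 6.51 FPKM in conventional liver, against 1.31 FPKM in organic muscle and 1.57 FPKM in conventional muscle. ADSS1, the muscle form of the enzyme that starts AMP synthesis from inosine monophosphate, had a log2 fold change of -5.15 of liver over muscle, and AOX1, an oxidase related to XDH, one of -4.95. GDA, which deaminates guanine to xanthine, went the other way at 2.71, as did the nucleotidase NT5C2 at 2.34. In salvage, HPRT1, which returns hypoxanthine to the nucleotide pool, was lower in liver at -2.90 and ADK, which phosphorylates adenosine, higher at 5.05.

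For urate export, SLC2A9, a urate carrier, averaged 12.2 ± 3.26 FPKM in organic liver and 20.46 ± 8.998 FPKM in conventional liver, against 0.0520 FPKM in organic muscle and 0.0985 FPKM in conventional muscle. In liver it read 12.3, 14.1, 16.2, 10.6 and 7.70 FPKM in organic libraries, against 35.1, 20.47, 10.6, 18.1 and 18.1 FPKM in conventional libraries. All 5 organic livers lay below the conventional mean and the groups overlapped. The log2 fold change was -0.77 ± 0.27 (SE, unadjusted p = 0.0165, adjusted p = 0.625, edgeR). It ranged from -0.48 without conventional replicate 1 to -0.925 without conventional replicate 3. ABCG2, a urate-exporting pump, was higher in liver than in muscle (log2 fold change 1.91), and in muscle it had a log2 fold change of organic over conventional of -0.62 ± 0.20 (SE; unadjusted p = 0.00807, adjusted p = 0.567, edgeR).

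Around glutamine and the urea cycle the tissues were mixed. GPT2, an alanine transaminase, was higher in liver by a log2 fold change of 5.28. ASS1, which makes argininosuccinate, was higher in liver at 2.58, while ASL, which splits it, was lower at -0.95, a call lost among conventional libraries alone (-0.75, adjusted p = 0.158, edgeR). The carrier SLC25A13 was higher at 3.88. OTC was listed at 0 in all 20 libraries. So was PNP, which releases hypoxanthine from inosine on the route to urate. Whether the 0 of either row reflects a silent gene was not tested. ARG2 averaged 0.356 FPKM in organic liver and 0.467 FPKM in conventional liver, against 0.195 FPKM in organic muscle and 0.313 FPKM in conventional muscle, too low to be tested. In muscle, ASNS, asparagine synthetase, gave -2.39 ± 1.12 for organic over conventional (log2 ± SE), and 0.24 without conventional replicate 3, the library that also had the lowest GLUL and the highest CPS1 of the muscles.

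**Figure D5:**
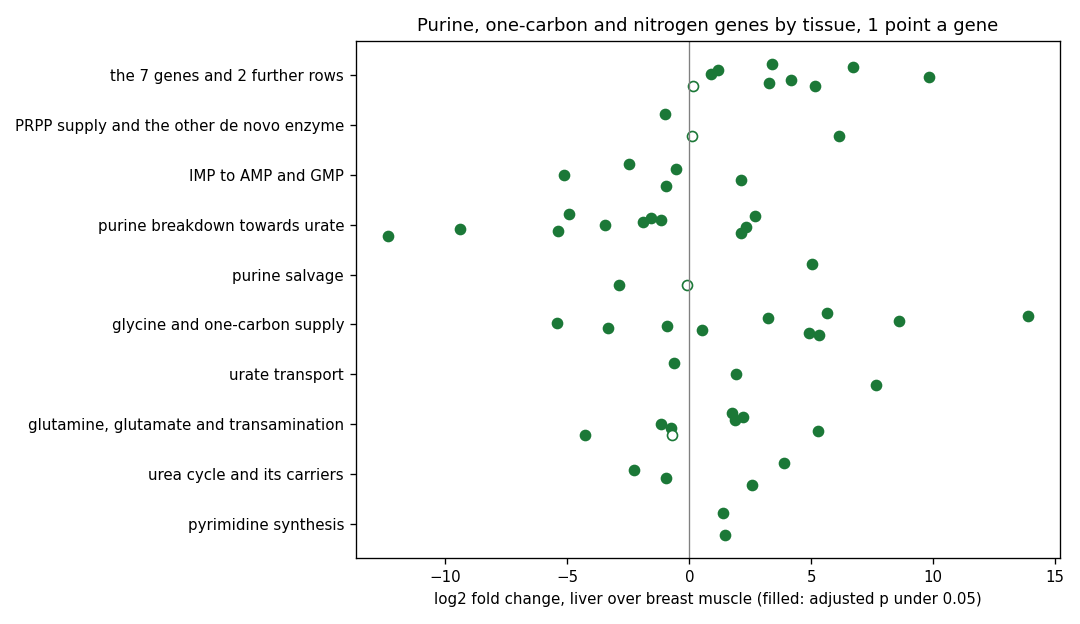
Fitted log2 fold change of liver over breast muscle for the members, the further rows and the tested genes of the 9 pathway lists, from edgeR, a point per gene, filled where the adjusted p was under 0.05, with a line at 0. The ring enzymes other than ADSL and the glycine and folate carbon genes lie mostly above 0, and 8 of the 11 breakdown genes below; the farthest points (FTCD, AMPD1, XDH, NT5C1A) rest on few or no counts in either liver or muscle, so their distance is imprecise, and that of FTCD is not a measured fold.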

How the data were processed

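Gene counts and FPKM of 20 libraries were used as deposited in the authors' single table. Among the tools, HISAT2 2.0.5 and DESeq2 1.20.0 appear in the submitters' processing notes, as does the GRCg6a build. How reads were counted, and whether by strand, is not stated in the sources at hand. The deposited FPKM were found to be scaled by size factors rather than by each library's own total. The scaling used stood at 0.824 to 1.19 of the library's total. Whether levels scaled in this way are comparable between the tissues was not tested.

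From the deposited counts, edgeR 4.0.16 in R 4.3.3 (TMM scaling, filterByExpr with a minimum count of 10, robust quasi-likelihood F-test) compared systems within each tissue. The interaction and the tissue contrast were fitted over all 20 libraries with 4 group means. P-values were adjusted by Benjamini-Hochberg over all genes tested, with a threshold of 0.05. Standard errors are the log2 fold change divided by the square root of F, and 95% intervals use the fit's degrees of freedom. DESeq2 1.42.0, limma 3.58.1 on log2(FPKM + 1), other scaling, no filter, a replicate block and leaving out each library were alternatives. Members and lists were chosen with earlier results of these data known. Named pathway genes were those past the threshold or, otherwise, up to 3 per list with the smallest p, and the text gives a part of these. For each member, the gene with a symbol and the highest liver r was named.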

Additional observations from a re-analysis of the deposited data

Results flagged for a closer look

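A scan for stray libraries took 66 groups of 5 libraries, from total counts, the members and only a part of the named pathway genes. In these groups 7 values, in 5 libraries, stood apart from the rest of their group by Dixon's test at 95%. That test flags about 1 in 20 groups by chance. Named genes outside the scan can hold further such values. SHMT1 was at 9.751 FPKM in organic muscle replicate 3, against 5.395 to 5.672 FPKM in the other organic muscles. Organic liver replicate 1 had 20488526 counts, against 14360757 to 15071735 in the other organic livers. XDH stood at 300.0 FPKM in conventional liver replicate 4, against 94.7 to 149.0 FPKM in the other conventional livers. GPT2 stood at 269.0 FPKM in organic liver replicate 3 (21.7 to 68.8 FPKM in the others) and at 110.0 FPKM in conventional liver replicate 4 (12.2 to 36.7 FPKM in the others). In conventional muscle, NT5M stood at 14.5 FPKM in replicate 2 (9.58 to 10.4 FPKM in the others). SLC1A4, an amino acid carrier, stood at 10.2 FPKM in conventional muscle replicate 3 (0.697 to 1.52 FPKM in the others) and ASNS at 97.1 FPKM in the same library (2.48 to 4.71 FPKM in the others).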

How the results depend on the processing

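The count of genes called by raising system was 0 in both tissues with edgeR, and DESeq2 called 32 in liver and 15 in muscle, none of them a member. Leaving out 1 library in turn gave 0 to 1 muscle genes, the 1 without conventional replicate 4. Some estimates changed sign when a library was left out: in liver GART ranged from -0.222 to 0.103, ADSL from -0.309 to 0.155, XDH from -0.207 to 0.326, PURH from -0.073 to 0.267 and GPT2, at 0.959 over all livers, from -0.018 without organic replicate 3 to 1.572. ASNS in muscle ranged from -2.694 to 0.235, the CPS1 interaction from -0.922 to 0.018, and ADSL between tissues from -0.002 to 0.235, with -0.017 among organic libraries alone. The cause of these shifts was not tested.

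Samples that share a replicate number were not treated as pairs. Between systems their deviations correlated at -0.130 to 0.121 in liver and -0.142 to 0.0588 in muscle, and between tissues at 0.103 to 0.191 in organic and 0.0465 to 0.175 in conventional libraries. Of the livers, 5 of 5 organic and 4 of 5 conventional ones correlated best with the muscle of their own number, a hint from the data. The replicate block differed between the fits. Between systems it grouped organic and conventional libraries of the same number, which no label pairs, and XDH in liver turned to 0.037. For the tissue contrast and the interaction it grouped the liver and muscle of the same system and number. With it the tissue contrast called 11831 genes against 11779 without it. No member's call changed with either block. With the block of liver and muscle, the tissue contrast gave 1.02 (adjusted p = 0.00157, edgeR) for GLUL and 1.31 (adjusted p = 0.000586, edgeR) for CPS1. Depth limits XDH in muscle and CPS1 throughout.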
